A study of Homo sapiens with 32 samples.

Results

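The ATP-binding cassette (ABC) transporter genes of subfamilies A, B, C, D and G were followed in the human multiple myeloma line MM.1S over 4 treatments. Members were all genes of the expression table whose symbol was ABC, 1 of those 5 letters and a number, which gave 34 of 24249 genes. The rule used symbols only, no measured values. Total RNA was sequenced as 8 libraries, each run on 4 lanes. In ATRA+Cfz (1 library) the cells had a 1 h pulse of carfilzomib (Cfz), a proteasome inhibitor, and then 12 h in all-trans retinoic acid at 10 µM (ATRA), the vitamin A metabolite that is the ligand of the retinoic acid receptors. In ATRA (3 libraries) the pulse was with the vehicle dimethyl sulfoxide (DMSO) and the 12 h with ATRA, in Cfz (1 library) the pulse was with carfilzomib and the 12 h with DMSO, and in DMSO (3 libraries) both steps held DMSO. All groups were kept in fresh medium after the pulse, and all came from the same cell line. Since nothing in the labels ties the libraries of a group to separate cultures, the spread behind each p-value may be technical only.

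ABC transporters use ATP to move substrates across membranes. Some, such as the P-glycoprotein pump encoded by ABCB1 and the multidrug resistance proteins of the ABCC subfamily, export drugs and organic anions from the cell, and P-glycoprotein accepts several drugs used in myeloma, among them carfilzomib. Most members of the A and G subfamilies move lipids or sterols, several B members sit in mitochondria or lysosomes, and the D members serve peroxisomes and, in the case of ABCD4, lysosomes.

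Levels are in FPM, fragments scaled to a fixed total per lane, as the authors deposited them, averaged over the 4 lanes of a library. Depth was 14136937 to 17155331 reads per library, so that 3 reads, the limit that a count of 0 allows, corresponded to 0.175 to 0.212 FPM. DMSO 3 stood apart: its chi-square over the degrees of freedom was 12.08 when set against DMSO 1 and 12.79 against DMSO 2, and that of DMSO 1 with DMSO 2 was 1.88. Mitochondrially encoded genes took 5.72% of the reads in ATRA+Cfz, 3.67% to 3.89% with ATRA, 5.43% in Cfz, and 4.12%, 4.09% and 5.85% in DMSO 1, 2 and 3. The part of DMSO 3 in the results was not tested beyond leaving it out, and values without it are given for some of the members it touches. All 8 plasma cell markers were detected, with a summed level of 8860 FPM in ATRA+Cfz, 10400 to 10500 FPM with ATRA, 7810 FPM in Cfz and 7670 to 9090 FPM with DMSO, while the lists for erythroid, stromal, myeloid, and T or NK cells each summed to at most 3.2 FPM in any library. PECAM1, also an endothelial marker, lay between 1.66 and 8.7 FPM, epithelial markers summed to at most 3.67 FPM, and the listed B cell markers were not analysed here. In these bulk samples, fewer cells that carry a transcript and less of it per cell cannot be told apart.

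Of the 34 genes, 11 reached 10 FPM in every library, among them ABCA5, ABCA7, ABCB6, ABCB8, ABCB10, ABCC1, ABCC4, ABCC5, ABCC10 and ABCD3. A group mean of at least 10 FPM was reached by 14 members in ATRA+Cfz, 13 with ATRA, 12 in Cfz and 11 with DMSO. Per kilobase of transcript, a scale on which genes can be compared, ABCB6 was the highest member in ATRA+Cfz (45.2 FPM per kb), ATRA (34.3 FPM per kb) and Cfz (46.4 FPM per kb), and ABCB10 the highest with DMSO (34.9 FPM per kb). ABCB1 stood at rank 7 of 34 in both ATRA+Cfz (8.82 FPM per kb) and ATRA (9.03 FPM per kb), at rank 22 in Cfz (0.151 FPM per kb) and at rank 26 with DMSO (0.117 FPM per kb). The other 6 members were too low to test, with at most 0.569 FPM in any library. They were ABCC3 and ABCC11, both anion exporters, the bile salt export pump gene ABCB11, ABCA13, ABCB5 and ABCG5.

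The remaining 28 members were tested with limma within a fit over 15827 genes, and a call needed an adjusted p under 0.05 by the method of Benjamini and Hochberg over all of them. With ATRA against DMSO, 12 of the 28 (42.9%) rose, against 21.3% of all genes tested, and 5 (17.9%) fell, against 27.4% of all genes. Their median log2 fold change was 0.26, and that of all genes tested was -0.03. ABCB1, ABCG1 and ABCA1 each rose by more than 2 on the log2(FPM + 0.5) scale. All 5 that fell changed by less than 1. Without DMSO 3, 11 members rose and 5 fell with ATRA, against 22.3% and 29.6% of all genes, and the changes of ABCG1 and ABCA1 were 2.72 and 2.33.

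**Figure D1:**
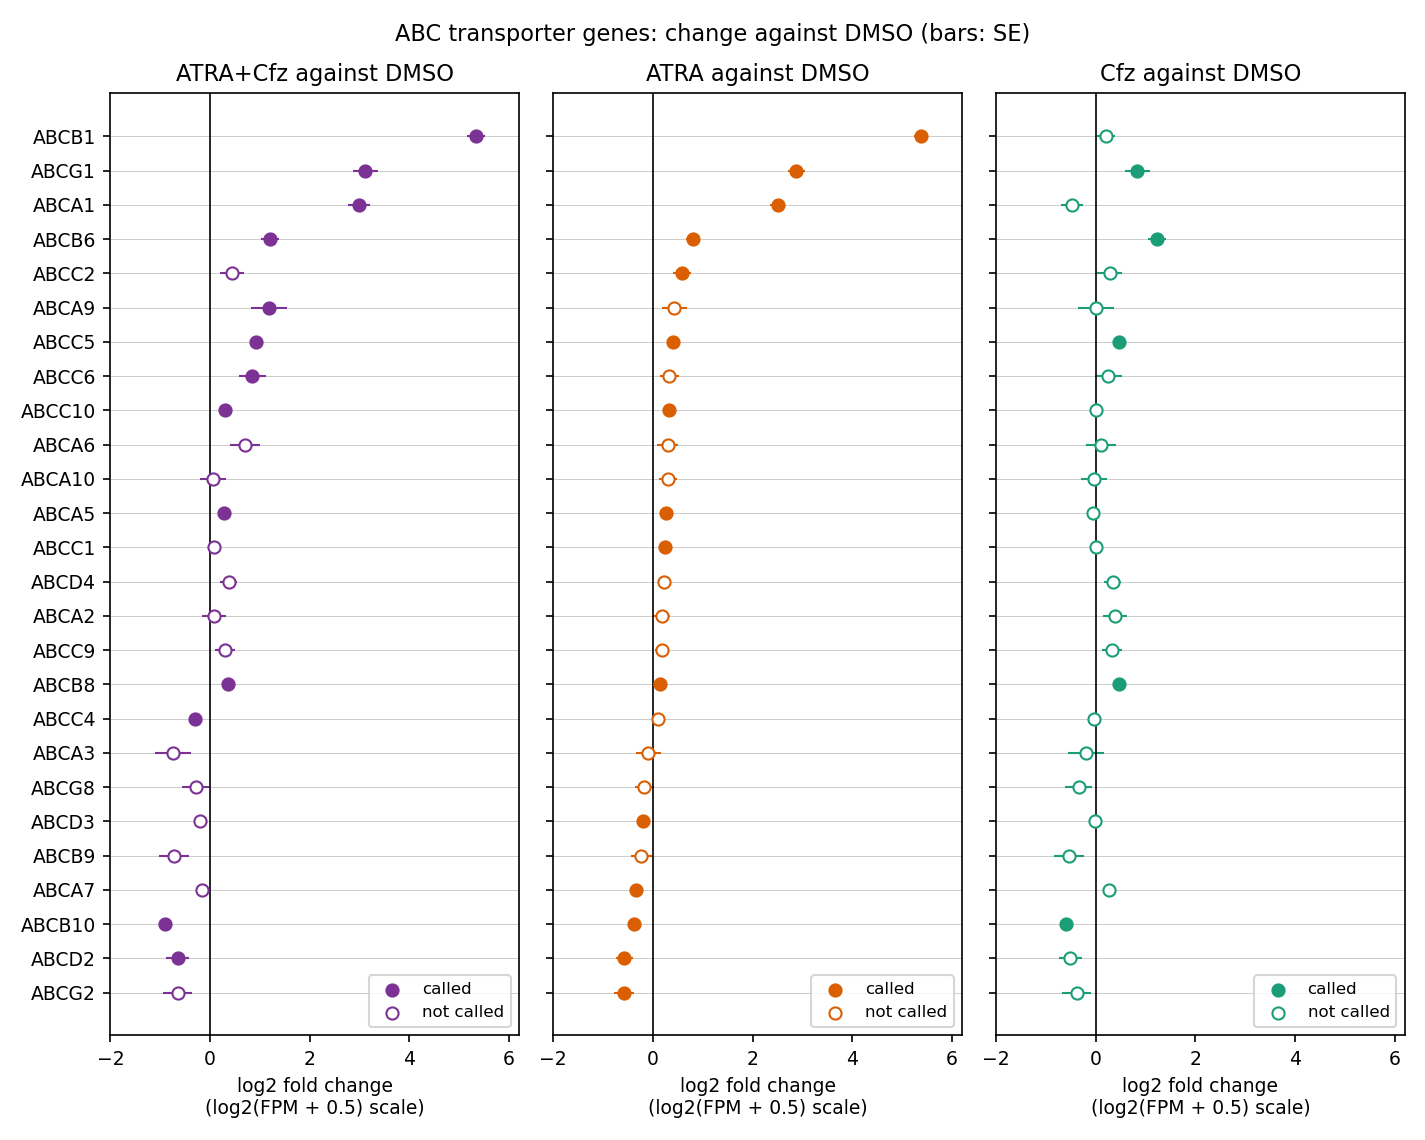
Log2 fold change against DMSO of tested ABC genes, on the log2(FPM + 0.5) scale, in ATRA+Cfz (1 library), ATRA (3 libraries) and Cfz (1 library) against 3 DMSO libraries. Bars are standard errors, filled points passed an adjusted p under 0.05, and genes are ordered by their change with ATRA. ABCB1, ABCG1 and ABCA1 lead both panels with ATRA, at 5.37, 2.88 and 2.50 in the ATRA panel, while in the Cfz panel ABCB6 is highest, at 1.23.

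The drug and anion efflux genes held the largest single change. Of 8 tested members of this group, 5 rose with ATRA (ABCB1, ABCC1, ABCC2, ABCC5 and ABCC10), 1 fell (ABCG2) and 2 were not called (ABCC4 and ABCC6). ABCB1 (ENSG00000085563), the gene of P-glycoprotein, had 42.2 FPM in ATRA+Cfz, 44.0, 42.7 and 42.8 FPM with ATRA, 0.721 FPM in Cfz, and 0.524, 0.423 and 0.734 FPM with DMSO. The Cfz library held 11 of its reads, and the DMSO libraries 9, 7 and 11. All 4 libraries with ATRA lay far above all 4 without it, and within either set the values lay close together. The ratio of means was 77-fold for ATRA over DMSO, 75.2-fold for ATRA+Cfz over DMSO and 58.5-fold for ATRA+Cfz over Cfz, ratios that rest on a low denominator. The 95% Poisson interval, which covers counting error only, was 38.8 to 45.7 FPM in ATRA+Cfz and 0.36 to 1.29 FPM in Cfz. On the log2(FPM + 0.5) scale ATRA+Cfz exceeded Cfz by 5.13 ± 0.22 (SE, limma adjusted p = 4e-08) and DMSO by 5.34 ± 0.18 (limma adjusted p = 2e-09), and it differed from ATRA by -0.03 ± 0.18 (limma adjusted p = 0.91). The ATRA effect after the carfilzomib pulse minus that without it was -0.25 ± 0.25 (limma adjusted p = 0.66), and Cfz differed from DMSO by 0.21 ± 0.18 (limma adjusted p = 0.42). Over the alternatives run, the ATRA change lay between 4.83 and 6.32, and it was 5.49 without DMSO 3.

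ABCB1 took 17.3% of the summed FPM of the efflux genes in ATRA+Cfz, 19.4%, 18.5% and 18.7% with ATRA, 0.422% in Cfz, and 0.331%, 0.268% and 0.517% with DMSO. This share of reads, which also depends on transcript length, split by ATRA in the same way as the level. RUNDC3B overlaps ABCB1 on the opposite strand in GENCODE, but the transcripts of the pair share no 31-base stretch there, on either strand. The annotation that the authors used is not given. RUNDC3B had 3.12 FPM in ATRA+Cfz, 5.73, 4.52 and 4.07 FPM with ATRA, 1.31 FPM in Cfz, and 2.1, 1.81 and 1.81 FPM with DMSO. All 4 libraries with ATRA were above all 4 without it for this gene too, by far smaller ratios. In the list of genes near ABCB1 on its chromosome, 2 of 7 tested genes rose with ATRA and 3 fell: RUNDC3B rose by 1.12 and ADAM22 by 0.50, whereas CROT changed by -0.67 and SLC25A40 by -0.62 on the log2 scale. In Cfz 0 rose and 3 fell, and in ATRA+Cfz 3 rose and 4 fell. Over all genes tested, 21.3% rose and 27.4% fell with ATRA, 7.94% and 17% in Cfz, and 20% and 30.5% in ATRA+Cfz. ABCB4, the closest relative of ABCB1, was not analysed here. Of the 31-base stretches of the ABCB1 transcripts, 3.5% also occur in another gene, and ABCB4 is the only such gene.

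RefSeq lists a pair of promoter windows of ABCB1 on GRCh38.p14, each from 250 bases before an annotated start to 50 bases after it. They are shown because ABCB1 carried the largest change and its starts differ in base composition and motifs; the first is chr7:87713246-87713545 and the second chr7:87600835-87601134, both on the minus strand. Capitals mark CCAAT or its reverse complement ATTGG.
ABCB1 upstream start: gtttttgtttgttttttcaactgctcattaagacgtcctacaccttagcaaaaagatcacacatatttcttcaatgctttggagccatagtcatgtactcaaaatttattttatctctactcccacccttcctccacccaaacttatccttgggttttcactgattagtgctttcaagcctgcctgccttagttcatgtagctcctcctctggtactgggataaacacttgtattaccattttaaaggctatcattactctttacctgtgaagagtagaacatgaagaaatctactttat
ABCB1 downstream start: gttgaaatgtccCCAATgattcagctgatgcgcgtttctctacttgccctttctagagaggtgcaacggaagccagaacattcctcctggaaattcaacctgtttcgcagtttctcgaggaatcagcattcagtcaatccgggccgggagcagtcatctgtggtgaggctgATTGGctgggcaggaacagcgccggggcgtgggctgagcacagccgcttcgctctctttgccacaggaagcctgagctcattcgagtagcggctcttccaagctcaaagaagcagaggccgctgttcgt
The downstream window held this motif at positions -238 and -79, counted so that the annotated start is 1 and the base before it -1, and the upstream window held none of the motifs searched. The gene table does not separate transcripts by start, so it does not say which start was used. CCAAT or its reverse complement was present in 34.6% of 35116 RefSeq promoter windows of this length and in 9 of 42 windows of 28 member genes. Direct repeats of the half-sites AGGTCA and GGGTCA, with AGTTCA and GGTTCA as further variants, the arrangement to which retinoic acid and related receptors are known to bind, were searched on both strands with spacers of 1, 2, 4 and 5 bases. Exact matches were found in 0.131%, 0.0399%, 0.0854% and 0.0883% of all windows, in that order of spacers, and in 0 of the 42 member windows. Repeats with any other base in a half-site were not counted. The search therefore cannot show that a member window lacks a receptor element.

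**Figure D2:**
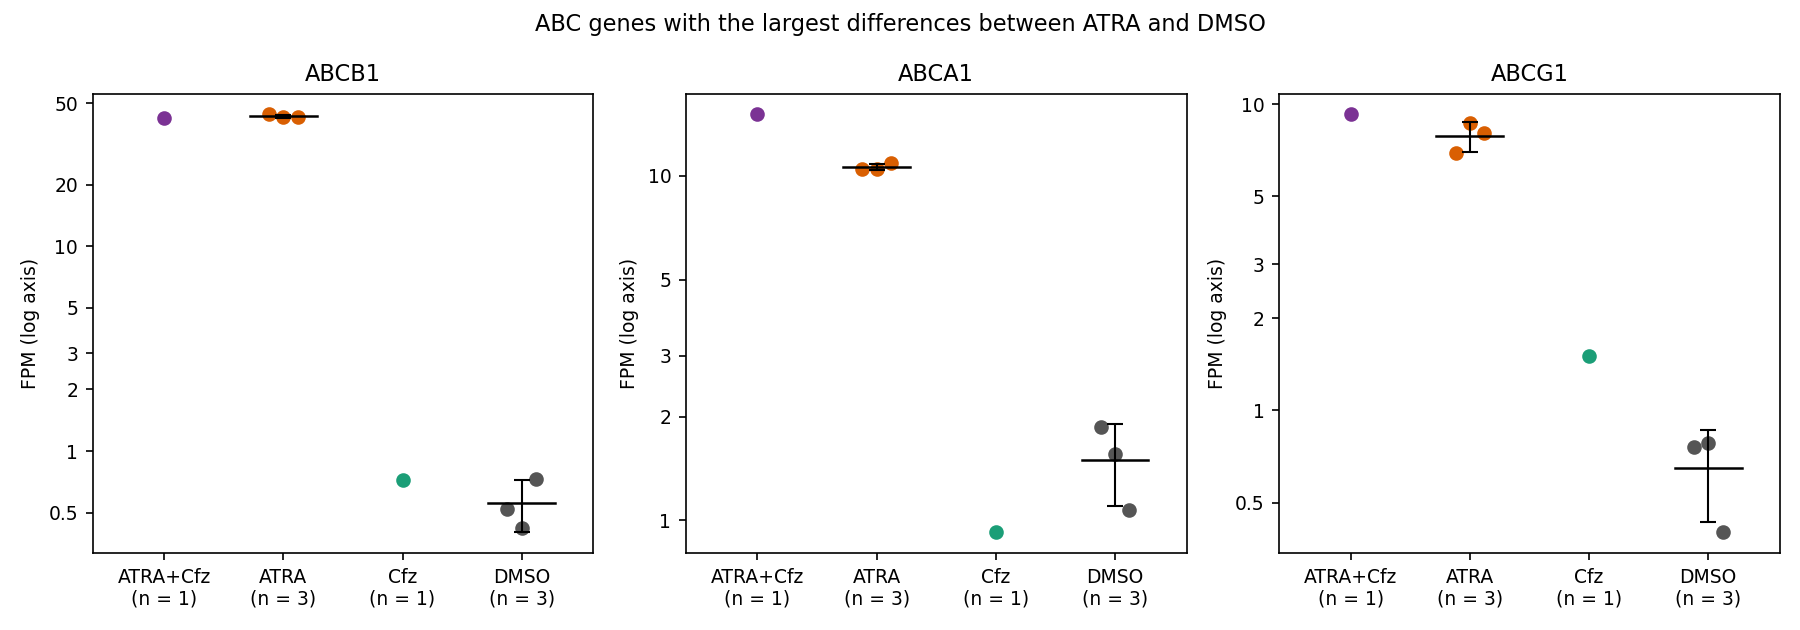
FPM per library of ABCB1, ABCA1 and ABCG1 on log axes, with the mean and SD for ATRA and DMSO (n = 3 each) and single points for ATRA+Cfz and Cfz. In each gene all 4 libraries with ATRA lie above all 4 without it, for ABCB1 at 42.2 to 44.0 FPM against at most 0.734 FPM.

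Among the other efflux genes, ABCC5, which exports cyclic nucleotides and other organic anions, was the highest per kilobase in every group. It had 97.6 FPM in ATRA+Cfz, 65.5, 69.5 and 68.6 FPM with ATRA, 70.5 FPM in Cfz, and 55.3, 52.9 and 46.2 FPM with DMSO. ATRA+Cfz was the highest, Cfz lay just above the ATRA libraries, and all of these lay above the DMSO libraries. ABCC5 rose by 0.40 ± 0.06 with ATRA (limma adjusted p = 0.00023), by 0.46 ± 0.09 in Cfz (limma adjusted p = 0.0034) and by 0.92 ± 0.09 in ATRA+Cfz (limma adjusted p = 4.5e-06) against DMSO. Without DMSO 3 these were 0.32, 0.38 and 0.85, all still called. ATRA+Cfz also exceeded ATRA by 0.52 ± 0.09 and Cfz by 0.47 ± 0.11 (limma adjusted p = 0.0011 and 0.0068), and the interaction was 0.07 ± 0.12 (limma adjusted p = 0.61).

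ABCC1, an exporter of glutathione conjugates, rose by 0.25 ± 0.05 with ATRA, and ABCC10, a relative of it, by 0.32 ± 0.06. ABCC2, best known from the bile-facing membrane of hepatocytes, rose by 0.58 ± 0.18, a call that was lost without DMSO 3, ATRA 2 or ATRA 3 and with DESeq2. ABCG2, the breast cancer resistance protein gene, changed by -0.58 ± 0.21 (limma adjusted p = 0.034), with ATRA and DMSO libraries that overlapped, and this call was lost in 6 of the alternatives, among them those without DMSO 1, DMSO 3, ATRA 1 or ATRA 2. ABCC4, an exporter of cyclic nucleotides and prostaglandins, was not called with ATRA and was lower in ATRA+Cfz than in ATRA by -0.41 ± 0.10 on the log2 scale (limma adjusted p = 0.012), a call lost with DESeq2. It was also called lower in ATRA+Cfz against DMSO, at -0.31 ± 0.10, a call lost without DMSO 1 or DMSO 2 and with edgeR and DESeq2. ABCC6, needed for the release of ATP from liver cells, had 1.06 FPM in ATRA+Cfz, 0.631, 0.555 and 0.571 FPM with ATRA, 0.527 FPM in Cfz, and 0.29, 0.482 and 0.333 FPM with DMSO. It was called in ATRA+Cfz against DMSO alone, at 0.85 ± 0.27, with 15 reads in ATRA+Cfz. DESeq2 did not call it, and 23.1% of its 31-base stretches are shared with its pseudogenes, so its value is uncertain.

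The efflux genes together summed to 244 FPM in ATRA+Cfz, 227, 230 and 229 FPM with ATRA, 171 FPM in Cfz, and 158, 158 and 142 FPM with DMSO. The ATRA libraries lay above the DMSO libraries, with means of 229 ± 1.53 FPM against 153 ± 9.24 FPM (SD, n = 3 each), a ratio of 1.5. A large part of this gap was ABCB1 alone, with means of 43.1 FPM with ATRA and 0.56 FPM with DMSO. An exact two-sided permutation test gave p = 0.1, the smallest that 3 libraries against 3 can give. Genes tied to multidrug resistance that are not ABC genes moved in both directions. Of 15 tested, 5 rose and 5 fell with ATRA, against 21.3% and 27.4% of all genes. In Cfz 3 rose and 4 fell, against 7.94% and 17%. In ATRA+Cfz against DMSO 3 rose and 5 fell, against 20% and 30.5%. TOP2A, the topoisomerase that anthracyclines target, changed by -0.91 with ATRA and by -1.30 in ATRA+Cfz on the log2 scale.

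**Figure D3:**
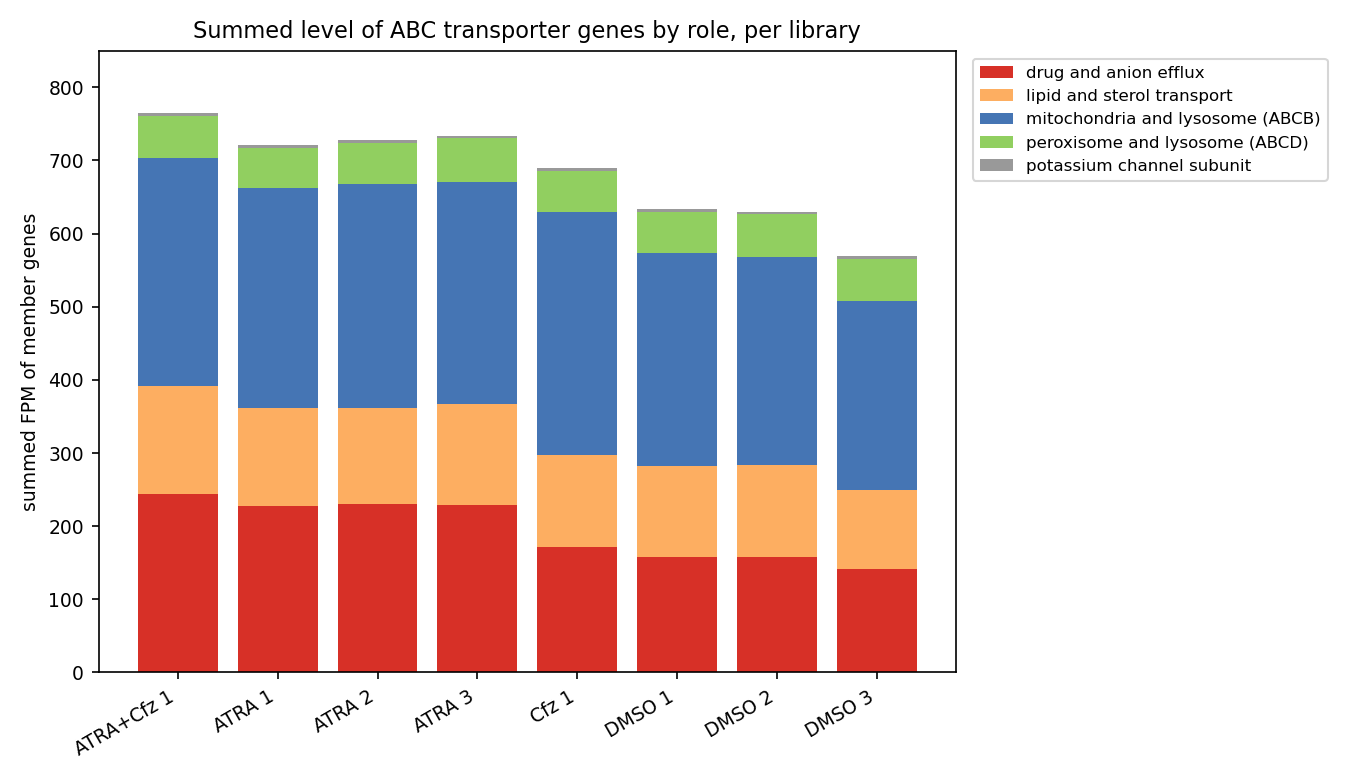
Summed FPM of the 34 ABC genes in each library, stacked by role. The total was 764.8 FPM in ATRA+Cfz, 721 to 733.9 FPM with ATRA, 690.3 FPM in Cfz and 569.4 to 633.3 FPM with DMSO, and the efflux genes make the lowest segment.

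The lipid and sterol transporters included the changes next in size to that of ABCB1. Of 10 tested, 3 rose with ATRA (ABCA1, ABCA5 and ABCG1), 1 fell (ABCA7) and 6 were not called. ABCA1 (ENSG00000165029) and ABCG1 (ENSG00000160179) both move cholesterol and phospholipid out of cells, ABCA1 to lipid-poor apolipoproteins and ABCG1 to high-density lipoprotein, and both are known targets of the oxysterol-sensing liver X receptors (LXR). ABCA1 had 15.1 FPM in ATRA+Cfz, 10.5, 10.5 and 10.9 FPM with ATRA, 0.922 FPM in Cfz, and 1.87, 1.56 and 1.07 FPM with DMSO. Libraries with ATRA were all above those without it, ATRA+Cfz was the highest and Cfz the lowest. ABCA1 rose by 2.50 ± 0.16 with ATRA (limma adjusted p = 1.7e-07), by 2.98 ± 0.22 in ATRA+Cfz against DMSO (limma adjusted p = 6.3e-07) and by 3.45 ± 0.27 in ATRA+Cfz against Cfz (limma adjusted p = 3.8e-06). The interaction for ABCA1 was 0.95 ± 0.32 and did not pass (limma adjusted p = 0.14), and without DMSO 3 it was 1.12 and passed (limma adjusted p = 0.008). Without DMSO 3 the Cfz change of ABCA1 was also called, at -0.64 (limma adjusted p = 0.013), against -0.47 ± 0.22 (limma adjusted p = 0.16) with all libraries.

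ABCG1 had 9.27 FPM in ATRA+Cfz, 6.93, 8.68 and 8.03 FPM with ATRA, 1.51 FPM in Cfz, and 0.757, 0.783 and 0.4 FPM with DMSO. The Cfz library, with 23 reads of this gene, lay between the ATRA and the DMSO libraries. ABCG1 rose by 2.88 ± 0.17 with ATRA (limma adjusted p = 1.2e-07), by 3.11 ± 0.25 in ATRA+Cfz (limma adjusted p = 9.9e-07) and by 0.83 ± 0.25 in Cfz (limma adjusted p = 0.03) against DMSO. The Cfz call was lost with DESeq2 and without ATRA 3, and was 0.66 without DMSO 3. ATRA+Cfz exceeded Cfz by 2.28 ± 0.30 (limma adjusted p = 0.00017).

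The promoter of ABCA1 is shown because ABCA1 was the lipid transporter that rose most in ATRA+Cfz over Cfz; RefSeq places it at chr9:104928106-104928405 of GRCh38.p14, on the minus strand. Capitals mark GGGCGG (a GC box) and CACGTG (an E-box).
ABCA1: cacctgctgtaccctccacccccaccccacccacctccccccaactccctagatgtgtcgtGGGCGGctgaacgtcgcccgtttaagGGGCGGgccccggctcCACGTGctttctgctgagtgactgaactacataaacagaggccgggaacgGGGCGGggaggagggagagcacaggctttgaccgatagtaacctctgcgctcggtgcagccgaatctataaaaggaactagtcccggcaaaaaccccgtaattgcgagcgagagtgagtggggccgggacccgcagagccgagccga
GC boxes stood at positions -189, -163 and -97 and the E-box at -147. A GC box, on either strand, was present in 45% of all windows and in 20 of the 42 member windows, and an E-box in 7.26% of all windows and in 7 of 42. ABCG1 had no entry in the promoter table.

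Of 11 tested LXR-responsive lipid genes that are not ABC genes, 5 rose and 2 fell with ATRA, 1 rose and 4 fell in Cfz, and 5 rose and 2 fell in ATRA+Cfz against DMSO. SREBF1, which encodes a transcription factor of fatty acid synthesis, rose by 2.39 with ATRA and by 1.92 in ATRA+Cfz, and SCD, a fatty acid desaturase, by 2.17 and 1.77. In Cfz both were called lower, SREBF1 at -0.54 and SCD at -0.35. Of 12 tested nuclear receptor genes known to drive ABC genes, 4 rose and 2 fell with ATRA, 0 rose and 1 fell in Cfz, and 3 rose and 3 fell in ATRA+Cfz. For both lists, the all-gene shares higher and lower were 21.3% and 27.4% with ATRA, 7.94% and 17% in Cfz, and 20% and 30.5% in ATRA+Cfz. RARB, a retinoic acid receptor gene, rose by 0.95 with ATRA and by 1.49 in ATRA+Cfz, at levels of at most 1.77 FPM. NR1I3 rose by 0.92 in ATRA+Cfz, to 2.05 FPM in that 1 library. Receptor genes of higher level moved both ways. RARA, at 52.6 FPM with DMSO, rose by 0.73 with ATRA and by 0.74 in ATRA+Cfz. ESRRA, at 28.3 FPM with DMSO, changed by -0.49 in ATRA+Cfz.

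ABCA5 and ABCA7, the highest lipid transporters per kilobase in every group, moved less and in opposite directions. ABCA5, a lysosomal member, had 65.1 FPM in ATRA+Cfz, 63.7, 61.9 and 66.5 FPM with ATRA, 51.1 FPM in Cfz, and 53.9, 56.3 and 50.2 FPM with DMSO. It was above DMSO and Cfz in every library with ATRA and rose by 0.26 ± 0.05 (limma adjusted p = 0.0014). ABCA7, a phospholipid exporter, had 50 FPM in ATRA+Cfz, 46.5, 42.2 and 45.4 FPM with ATRA, 67.2 FPM in Cfz, and 60.3, 59.0 and 49.9 FPM with DMSO. DMSO 3 was the lowest DMSO library, level with ATRA+Cfz. ABCA7 fell by 0.33 on the log2 scale with ATRA (SE 0.07, limma adjusted p = 0.0022) and was lower in ATRA+Cfz than in Cfz by -0.42 ± 0.12 (limma adjusted p = 0.021). Without DMSO 3 the ATRA change was -0.41, and ATRA+Cfz was then also called lower than DMSO, at -0.25.

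ABCA9, a member of the cluster of A genes that also holds ABCA5, ABCA6 and ABCA10, was called in ATRA+Cfz against DMSO, at 1.19 ± 0.36 (limma adjusted p = 0.016), a call lost with DESeq2. It had 2.26 FPM in ATRA+Cfz, 1.26, 1.11 and 1.02 FPM with ATRA, 0.719 FPM in Cfz, and 0.7, 1.27 and 0.333 FPM with DMSO. The DMSO libraries spanned the ATRA values, and 11.1% of its 31-base stretches are shared with other genes. ABCA2, ABCA3, ABCA6, ABCA10 and ABCG8 were tested and not called in any comparison with all libraries, at no more than 2.93 FPM. The 13 lipid and sterol genes summed to 135 ± 3.0 FPM with ATRA and 119 ± 10.1 FPM with DMSO (exact two-sided permutation p = 0.1).

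Fewer members were called in Cfz than with ATRA against DMSO. All genes showed the same, with 21.3% higher and 27.4% lower with ATRA and 7.94% and 17% in Cfz. Cfz had 1 library and ATRA 3, which made standard errors larger, for ABCB6 0.18 in Cfz and 0.13 with ATRA. The lower count therefore does not show a smaller effect of carfilzomib. In Cfz against DMSO, 4 of 28 were called higher (ABCB6, ABCB8, ABCC5 and ABCG1), against a background of 7.94% of all genes tested, and 1 lower (ABCB10), against 17%. The split of all genes depended on scaling and tool, at 10.3% higher and 11.3% lower with median-ratio scaling, 9.47% and 13% with edgeR, and 6.75% and 5.96% with DESeq2. Without DMSO 3, 4 members were called lower (ABCA1, ABCB9, ABCB10 and ABCD2), against 23.8% of all genes. Both libraries with carfilzomib shared the higher mitochondrial share of DMSO 3 given above, and the part of that share in these results was not tested. The members' median log2 fold change was 0.04, and that of all genes was -0.08. The Cfz and ATRA+Cfz groups held 1 library each, so their spread was assumed to be like that of the DMSO and ATRA libraries and their differences have no replicate check. Of the 5 calls in Cfz, 3 were in the B members of mitochondria and lysosomes, which made 5 of the 28 tested members. These calls went both ways, with 2 higher (ABCB6 and ABCB8) and 1 lower (ABCB10), against 7.94% and 17% of all genes.

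**Figure D4:**
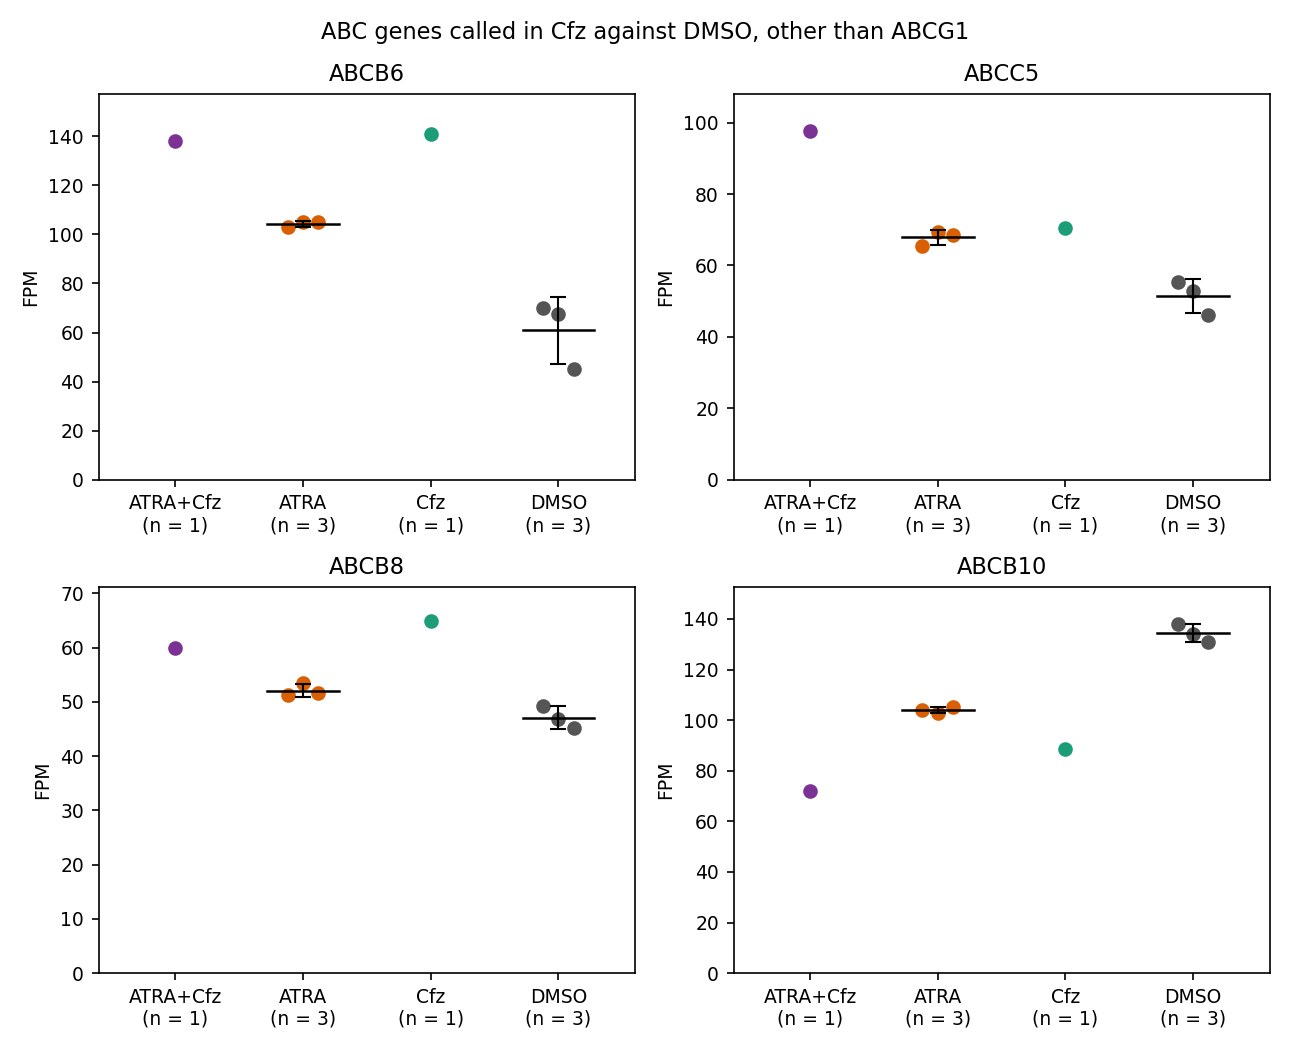
FPM per library of ABCB6, ABCC5, ABCB8 and ABCB10 on axes that start at 0, with the mean and SD for ATRA and DMSO (n = 3 each) and single points for ATRA+Cfz and Cfz. ABCB10 is lowest in ATRA+Cfz, at 71.8 FPM, and highest with DMSO, at 131 to 138 FPM; ABCB6 is near 140 FPM in both libraries with carfilzomib.

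ABCB6 (ENSG00000115657) encodes a porphyrin transporter found in mitochondrial and lysosomal membranes. It had 138 FPM in ATRA+Cfz, 103, 105 and 105 FPM with ATRA, 141 FPM in Cfz, and 70.1, 67.6 and 45.2 FPM with DMSO. Both libraries with carfilzomib lay close together and above the ATRA libraries, which were above all DMSO libraries, and DMSO 3 was the lowest of all. ABCB6 rose by 1.23 ± 0.18 in Cfz (limma adjusted p = 0.00056), by 0.80 ± 0.13 with ATRA (limma adjusted p = 0.00025) and by 1.2 ± 0.18 in ATRA+Cfz (limma adjusted p = 0.00015) against DMSO. After the pulse, ATRA+Cfz differed from Cfz by -0.04 ± 0.22 (limma adjusted p = 0.92). The interaction was -0.83 ± 0.25 and did not pass (limma adjusted p = 0.11). Without DMSO 3 it was -0.63 and passed (limma adjusted p = 1.3e-05), and the changes against DMSO were then 1.03 in Cfz, 0.60 with ATRA and 1.00 in ATRA+Cfz.

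The ABCB6 transcripts share 52.5% of their 31-base stretches with other genes, chiefly AC068946.2, a gene that overlaps it on the same strand, so the split between them is uncertain. AC068946.2 had 11.2 FPM in ATRA+Cfz, 5.41, 3.76 and 3.26 FPM with ATRA, 7.81 FPM in Cfz, and 3.61, 3.55 and 1.34 FPM with DMSO. The sum of both was 149 FPM in ATRA+Cfz, 108, 109 and 108 FPM with ATRA, 149 FPM in Cfz, and 73.7, 71.1 and 46.6 FPM with DMSO, with both libraries given carfilzomib on top and the DMSO libraries lowest, as for ABCB6 alone. The promoter of ABCB6 is shown because it held the 4 kinds of motif searched outside the receptor elements; it lies at chr2:219218909-219219208 of GRCh38.p14 on the minus strand. Capitals mark the GC box (also in its reverse complement CCGCCC), the E-box, CCAAT, and a match to TGACNNNGC, the core of the antioxidant response element to which NRF2 is known to bind.
ABCB6: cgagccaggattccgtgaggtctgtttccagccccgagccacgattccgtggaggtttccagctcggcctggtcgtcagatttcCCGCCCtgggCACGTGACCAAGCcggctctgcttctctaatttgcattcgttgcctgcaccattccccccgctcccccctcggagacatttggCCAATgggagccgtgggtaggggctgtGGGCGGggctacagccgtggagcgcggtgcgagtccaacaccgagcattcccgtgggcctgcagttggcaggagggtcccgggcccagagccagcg
The E-box at -156 and the TGACNNNGC match at -152 overlap. TGACNNNGC, on either strand, was present in 13.3% of all windows and in 10 of the 42 member windows. Of 14 tested NRF2 target genes that are not ABC genes, 13 rose and 0 fell in Cfz (limma), with a median log2 fold change of 1.15. All genes had 7.94% higher and 17% lower there. With ATRA 10 rose and 1 fell, against 21.3% and 27.4% of all genes. In ATRA+Cfz against DMSO 12 rose and 1 fell, against 20% and 30.5%. HMOX1, which breaks down heme, rose by 2.98 in Cfz and by 3.14 in ATRA+Cfz, and SLC7A11, the cystine importer, by 1.52 and 3.10.

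ABCB8, a transporter of the inner mitochondrial membrane, had 60 FPM in ATRA+Cfz, 51.2, 53.4 and 51.6 FPM with ATRA, 64.9 FPM in Cfz, and 49.3, 46.8 and 45.2 FPM with DMSO. It rose by 0.46 ± 0.07 in Cfz (limma adjusted p = 0.00062) and by 0.35 ± 0.07 in ATRA+Cfz (limma adjusted p = 0.0011), and by 0.14 ± 0.05 with ATRA (limma adjusted p = 0.025), a call lost with DESeq2 and without DMSO 2, ATRA 2 or ATRA 3. ABCB10, an inner membrane transporter tied to heme synthesis in red cell precursors, had 71.8 FPM in ATRA+Cfz, 104, 103 and 105 FPM with ATRA, 88.7 FPM in Cfz, and 138, 134 and 131 FPM with DMSO. Every library of every treatment lay below all DMSO libraries, with ATRA+Cfz the lowest. ABCB10 fell by 0.37 with ATRA (SE 0.04, limma adjusted p = 7.1e-06), by 0.60 in Cfz (SE 0.05, limma adjusted p = 1.9e-05) and by 0.90 in ATRA+Cfz (SE 0.05, limma adjusted p = 8.6e-08) against DMSO. It was also lower in ATRA+Cfz than in ATRA, by -0.53 ± 0.05, and than in Cfz, by -0.30 ± 0.06, with an interaction of 0.07 ± 0.07 (limma adjusted p = 4.1e-05, 0.0043 and 0.68). Leaving out DMSO 3 changed none of these ABCB10 calls against DMSO, with -0.39 with ATRA, -0.62 in Cfz and -0.92 in ATRA+Cfz. Pseudogenes hold part of the 9.9% of its 31-base stretches found elsewhere.

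ABCB9, a lysosomal peptide transporter, was not called, at -0.53 ± 0.30 in Cfz against DMSO, and was called lower in all 3 treatments without DMSO 3. It overlaps genes on the opposite strand and shares 27.3% of its 31-base stretches, so its value is uncertain. The 5 B members of mitochondria and lysosomes summed to 304 ± 2.52 FPM with ATRA and 279 ± 17.4 FPM with DMSO (SD, n = 3 each, exact two-sided permutation p = 0.1). Of 20 tested heme and iron-sulfur genes of mitochondria, 6 rose and 5 fell with ATRA, against 21.3% and 27.4% of all genes. In Cfz 1 rose and 4 fell, against 7.94% and 17%, and in ATRA+Cfz 3 rose and 8 fell, against 20% and 30.5%. ISCA1, an iron-sulfur assembly gene, rose by 0.56 with ATRA, by 0.38 in Cfz and by 0.86 in ATRA+Cfz, whereas FDXR, the reductase that passes electrons to mitochondrial ferredoxin, was called in ATRA+Cfz, at -0.96.

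Among the peroxisomal and lysosomal D members, ABCD2 and ABCD3 fell with ATRA. ABCD2, a peroxisomal carrier of fatty acids, had 4.53 FPM in ATRA+Cfz, 4.65, 4.52 and 5.35 FPM with ATRA, 5.05 FPM in Cfz, and 9.33, 7.73 and 5.61 FPM with DMSO. All DMSO libraries lay above the others, DMSO 3 only just. ABCD2 fell by 0.57 with ATRA (SE 0.17, limma adjusted p = 0.014), a call lost without DMSO 1 or ATRA 2, and by 0.65 in ATRA+Cfz (SE 0.23, limma adjusted p = 0.036), a call lost in 5 alternatives. Its change in Cfz was -0.51 ± 0.23 and was not called. Without DMSO 3 the ABCD2 changes were larger, at -0.76 with ATRA, -0.7 in Cfz and -0.84 in ATRA+Cfz. ABCD3, the abundant peroxisomal membrane protein of this subfamily, was called lower with ATRA at -0.19 ± 0.06 (limma adjusted p = 0.024), a call lost in 6 alternatives, and ABCD4, which serves lysosomal cobalamin, was not called. The D members together summed to 56.6 ± 2.42 FPM with ATRA and 57.5 ± 1.75 FPM with DMSO (SD, n = 3 each, exact two-sided permutation p = 0.7). Of 22 tested peroxisome genes, 6 rose and 4 fell with ATRA, against 21.3% and 27.4% of all genes. In Cfz 3 rose and 4 fell, against 7.94% and 17%, and in ATRA+Cfz 6 rose and 5 fell, against 20% and 30.5%. PEX6, a peroxisome biogenesis ATPase, rose by 0.66 with ATRA, by 0.48 in Cfz and by 0.57 in ATRA+Cfz against DMSO, and PEX11A rose by 0.69 in ATRA+Cfz.

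In ATRA+Cfz against DMSO, 12 members rose, against 20% of all genes tested, and 3 fell, against 30.5%. The 12 include ABCC6, which passed the filter only through its ATRA+Cfz value. The members' median log2 fold change was 0.29, and that of all genes was -0.05. In ATRA+Cfz against Cfz, 7 rose (among them ABCA1, ABCA5, ABCB1, ABCC5, ABCC10 and ABCG1) and 2 fell (ABCA7 and ABCB10), against 12.8% and 17.6% of all genes. The ABCC10 call there, at 0.30 ± 0.11 (limma adjusted p = 0.049), was lost in 11 alternatives. In ATRA+Cfz against ATRA, 2 rose (ABCB8 and ABCC5) and 2 fell (ABCB10 and ABCC4), against 10.6% and 20.2%. The ABCB8 call, at 0.20 ± 0.07, was lost in 7 alternatives, and without DMSO 3 the members called higher were 6, against 14.5% of all genes. With edgeR, all genes split into 12.8% higher and 15.5% lower. These comparisons share libraries with those against DMSO and are not independent of them.

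The interaction called 0 of 28 members in either direction with limma, against 0.992% of all genes higher and 1.31% lower. It had 4 members at an unadjusted p under 0.05 in limma, and edgeR and DESeq2 also called 0. The share of all genes at that unadjusted threshold is not given, so the 4 cannot be set against the shares above. Over all genes the split was 0.777% higher and 2.7% lower with median-ratio scaling and 0.455% and 1.44% with DESeq2. Without DMSO 3, ABCA1 was called higher and ABCB6 lower, 1 of 28 each way, against 6.01% of all genes higher and 6.54% lower. ABCC9, a regulatory subunit of ATP-sensitive potassium channels and no transporter by itself, was not called in any comparison and lay between 2.72 and 4.07 FPM.

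Of 6 tested ABC genes that lie outside these subfamilies or carry other symbols, 3 rose and 0 fell with ATRA, against 21.3% and 27.4% of all genes. In Cfz 3 rose and 2 fell, against 7.94% and 17%. In ATRA+Cfz against DMSO 4 rose and 1 fell, against 20% and 30.5%. ABCF3, which lacks membrane-spanning parts, rose by 0.21 with ATRA, by 0.25 in Cfz and by 0.44 in ATRA+Cfz, and TAP1, a peptide transporter of antigen presentation, fell by 0.40 in Cfz and by 0.52 in ATRA+Cfz on the log2 scale. CFTR, a chloride channel of the C subfamily, reached at most 0.501 FPM.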

How the data were processed

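Per the labels, the 32 columns are 4 lanes of each of 8 libraries of MM.1S total RNA, 2 groups with 3 libraries and 2 with 1. The submitters' processing notes name the tools fastp 0.20.0, kallisto 0.46.2 and DESeq2, the last with no version. Not given in the sources used here were the genome build, annotation, strand setting and carfilzomib dose. Per lane, the authors deposited FPM, which is a CPM unit, at 3497264 to 4321393 reads per lane. All values came out as whole reads within 0.01 read (100%), and chi-square over degrees of freedom between lanes of a library was 1.175 to 1.219. They were averaged, and 143 gene IDs that stood on more than 1 line were used once. Of 24249 IDs, the table itself named 17006, GENCODE release 29 another 6482 and 754 had names in a further list, which left 7 without a symbol. Transcript lengths, overlaps and shared 31-base stretches are from GENCODE release 29 by gene ID, and promoters from RefSeq on GRCh38.p14, with 28 of 34 members matched.

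Tests used limma-trend (version 3.58.1, R 4.3.3) on log2(FPM + 0.5), where low genes show too small a change. The filter was a mean of the 4 group means of at least 0.5 FPM, and the fit over all 8 libraries had 4 degrees of freedom left plus 7.2 from the prior. Sums over genes were compared with exact permutation tests. The script for the fit was tested on simulated data. Alternatives were edgeR 4.0.16 and DESeq2 1.42.0 on the recovered reads, median-ratio scaling, pseudocounts of 0.1 and 1 FPM, no filter or 1 FPM, robust empirical Bayes, a replicate block, a fit of DMSO and ATRA libraries only, and leaving out each replicate. Values of every library are given for members called with a log2 change of at least 1 with ATRA, or of at least 0.5 in another comparison, and for the 6 highest members. From each gene list, 1 to 4 genes called against DMSO with the largest changes are named. Some members are not reported here, and counts and sums include them. Members and lists were chosen with earlier results of these data known.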

Additional observations from a re-analysis of the deposited data

How the results depend on the processing

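Of 50 member changes called over the 6 comparisons, 37 were called under every alternative run and 13 were lost under at least 1, 24 others were called under at least 1, and 0 called changes turned their sign. Members called lower with ATRA numbered 5, against 27.4% of all genes, and 3 with DESeq2, against 19%. Members called lower in ATRA+Cfz against DMSO numbered 3, against 30.5% of all genes. They numbered 1 with DESeq2, against 20.7%, and 5 with the replicate block, against 30.4%. In ATRA+Cfz against ATRA, 2 members were called higher, against 10.6% of all genes, and 4 with edgeR, against 12.8%. With DESeq2, no filter and the replicate block 1 each was called higher, against 7.39%, 6.65% and 10.4%. In the same comparison 2 were called lower, against 20.2% of all genes, and 1 with DESeq2, against 11%. The causes were not tested. Leaving out 1 library gave 10 to 13 members higher and 2 to 5 lower with ATRA, against 18.1% to 22.3% and 24.1% to 29.6% of all genes. In Cfz 3 to 4 were higher and 1 to 4 lower, against 6.92% to 10.6% and 14.1% to 23.8%. In ATRA+Cfz against DMSO it was 12 to 14 and 2 to 6, against 18.6% to 22.2% and 28.4% to 33.3%. In ATRA+Cfz against Cfz it was 6 to 9 and 2 to 3, against 11.2% to 17.8% and 16% to 21.9%. In ATRA+Cfz against ATRA it was 1 to 6 and 2 to 3, against 8.26% to 14.5% and 16.4% to 25.9%. For the interaction it was 0 to 1 each, against 0% to 6.01% higher and 0.0126% to 6.54% lower. The members lower with ATRA were 2 without ATRA 2, against 24.1% of all genes. They were 3 without ATRA 1 or without DMSO 1, against 24.2% and 24.7%. Without DMSO 3, members lower were 4 in Cfz and 6 in ATRA+Cfz against DMSO, against 23.8% and 33.3% of all genes. Members higher in ATRA+Cfz against ATRA were then 6, against 14.5%. In that last comparison 1 was higher without DMSO 2, against 10.2% of all genes, and without each ATRA library, against 8.26% to 8.66%. Deviations of same-numbered ATRA and DMSO libraries correlated at -0.006, -0.002 and 0.006, so no shared effect of the replicate number was seen. This cannot show whether same-numbered libraries were made together, and the labels do not say. Of 1456 list counts recomputed, 159 moved by over 1.5 times. Lone Cfz and ATRA+Cfz libraries and low read counts of ABCB1, ABCA1 and ABCG1 without ATRA limit the precision of their ratios.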
